A study of Homo sapiens with 6 samples.

Results

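The insulin-like growth factor (IGF) axis was examined in SCC25, a human cell line of head and neck cancer, under hypoxia. The set was 10 genes taken by name from the count table: the binding proteins IGFBP2 to IGFBP7, the receptors IGF1R and IGF2R, and the adaptors IRS1 and IRS2. Of the 10 genes, 9 had a row among the 21776 genes of the table, and 8 were among the 14255 genes that passed the filter on low counts and were tested. IGFBP2 had no row and was not analysed here, and IGFBP5 had too few reads to be tested. The study asked how low oxygen changes such cells. All 6 RNA-seq libraries came from SCC25, which derives from an oral squamous carcinoma, is labelled as wild type and was grown in DMEM/F12 with serum and antibiotics. The 3 hypoxia libraries came from cells kept for 12 h at 1% O2 with 5% CO2 and nitrogen as the balance, and the 3 normoxia libraries from cells kept for 12 h in air with 5% CO2. The labels do not say whether replicates were separate cultures, so the p-values measure the spread between these libraries, which may be technical.

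IGF1 and IGF2 are small secreted ligands that act through IGF1R, a receptor tyrosine kinase closely related to the insulin receptor INSR. The activated receptor phosphorylates the adaptors IRS1 and IRS2, which recruit PI3-kinase and so switch on AKT and mTOR, and FOXO transcription factors are kept out of the nucleus while AKT is active. IGF-binding proteins hold the ligands outside the cell and limit how much reaches the receptor, while IGF2R lacks kinase activity and takes IGF2 and mannose 6-phosphate-tagged enzymes to the lysosome. Squamous epithelial cancers commonly carry IGF1R, and IGFBP3 is known as a gene that many hypoxic cells switch on.

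RefSeq promoter windows (build GRCh38.p14, 250 bases before to 50 after the start site) are printed for the pair of binding proteins that rose most, for the pair of adaptors that moved in opposite directions, and for IGF2R, whose window held the most matches. Each is written 5′ to 3′ on the strand of the gene. Capitals mark ACGTG and GCGTG on either strand, the core letters that hypoxia-inducible factors are known to bind. On the opposite strand they read CACGT and CACGC, and CACGTG therefore holds ACGTG on both strands.
IGFBP3, chr7:45921223-45921522, minus strand: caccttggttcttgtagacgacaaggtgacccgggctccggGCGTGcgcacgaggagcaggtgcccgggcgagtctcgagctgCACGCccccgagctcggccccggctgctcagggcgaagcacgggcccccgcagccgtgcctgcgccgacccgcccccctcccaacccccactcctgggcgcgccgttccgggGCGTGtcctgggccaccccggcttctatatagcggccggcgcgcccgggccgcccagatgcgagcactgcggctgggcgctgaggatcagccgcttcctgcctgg
IGFBP6, chr12:53097417-53097716, plus strand: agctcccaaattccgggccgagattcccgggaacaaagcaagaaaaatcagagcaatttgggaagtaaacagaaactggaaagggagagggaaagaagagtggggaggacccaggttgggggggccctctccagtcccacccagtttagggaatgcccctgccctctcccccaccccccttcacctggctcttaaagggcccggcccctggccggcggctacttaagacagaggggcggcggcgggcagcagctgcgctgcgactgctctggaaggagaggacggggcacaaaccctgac
IRS1, chr2:226799771-226800070, minus strand: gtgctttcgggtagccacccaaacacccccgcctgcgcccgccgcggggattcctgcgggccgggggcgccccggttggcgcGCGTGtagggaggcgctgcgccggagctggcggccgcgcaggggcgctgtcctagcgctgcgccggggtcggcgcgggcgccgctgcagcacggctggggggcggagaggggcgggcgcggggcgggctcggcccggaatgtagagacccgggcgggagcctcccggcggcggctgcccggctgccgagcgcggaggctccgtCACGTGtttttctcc
IRS2, chr13:109786534-109786833, minus strand: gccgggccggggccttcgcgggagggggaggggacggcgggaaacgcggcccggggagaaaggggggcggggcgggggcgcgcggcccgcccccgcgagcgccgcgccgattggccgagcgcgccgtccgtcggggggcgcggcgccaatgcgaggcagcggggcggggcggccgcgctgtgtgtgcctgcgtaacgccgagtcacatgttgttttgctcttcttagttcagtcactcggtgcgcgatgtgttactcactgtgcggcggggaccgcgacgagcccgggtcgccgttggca
IGF2R, chr6:159968832-159969131, plus strand: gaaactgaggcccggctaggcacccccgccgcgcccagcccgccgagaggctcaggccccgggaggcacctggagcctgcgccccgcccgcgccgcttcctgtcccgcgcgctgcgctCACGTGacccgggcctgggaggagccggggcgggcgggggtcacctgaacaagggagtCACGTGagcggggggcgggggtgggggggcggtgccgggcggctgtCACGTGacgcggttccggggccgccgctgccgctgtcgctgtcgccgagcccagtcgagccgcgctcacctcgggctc
Windows were found for 7 of the 8 tested genes, and 4 of the 7 held ACGTG or GCGTG, against 48.4% of 35116 RefSeq windows of the same length. The IGFBP3 window held GCGTG 3 times, with the first base at positions -209 and -55 from the start site on its own strand and at -167 on the opposite strand. Of all windows, 10.1% held 3 or more matches of either core, as did those of IGFBP3, IRS1, IGF1R and IGF2R, counting both strands. The IGF2R window, printed for its number of matches, held CACGTG 3 times (0.0940% of all windows held 3 or more), and the IRS1 window held CACGTG once downstream of its start site, CACGTG being present in 7.26% of windows. The windows of IGFBP6 and IRS2 held neither core, and IGF1R, not printed, held 5 matches. The FOXO-type letters TGTTTNC, searched on both strands, were found in 1 of the 7 windows, that of IGFBP6, and in 18.0% of all windows. All RefSeq windows served as the background, with no matching for G and C content. These matches describe letters only, and binding was not measured.

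The libraries held 29637189 to 37278703 counted reads each. Levels are given as FPKM, the deposited read counts scaled to gene length and library size, which allow different genes to be set side by side. Where a value is given for each library, replicates 1 to 3 follow in that order. Fold changes came from the counts, by edgeR's quasi-likelihood test with Benjamini-Hochberg adjustment over all genes tested. CA9, a carbonic anhydrase widely used as a marker of hypoxia, served as a check of the labels. It stood at 262, 277 and 293 CPM (read counts scaled to library size by TMM) under hypoxia and at 32.2, 27.3 and 67.7 CPM under normoxia, and rose by 2.71 ± 0.21 on the log2 scale (SE, n = 3 per condition; edgeR adjusted p = 2.03e-09). Normoxia replicate 3 had the highest CA9 of its condition, at 2.28 times the mean CPM of the other normoxia libraries.

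The squamous epithelial markers KRT5, TP63, CDH1, EPCAM and DSG3 were all detected, led by EPCAM at a mean of 183 FPKM over the 6 libraries. CDH1 and DSG3, genes of cell adhesion, each rose by 1.35 on the log2 scale, EPCAM fell by 0.35 and KRT5 by 0.18, and TP63 had a log2 fold change of 0.12 and did not pass (edgeR), while the list summed to 326 FPKM under hypoxia and 305 FPKM under normoxia. KRT14, a basal keratin, had 0 reads in 5 libraries and 1 read in normoxia replicate 2. The 6 fibroblast markers summed to 3.41 FPKM under hypoxia and 0.720 FPKM under normoxia, most of it COL1A1. Of these markers, 5 of 6 passed 3 reads in some library, but COL3A1 and DCN had at most 4 reads in any. The 5 endothelial markers, of which 4 passed 3 reads in some library, summed to 0.317 FPKM and 0.106 FPKM, led by CDH5. Of the leukocyte list, 2 of 5 genes did so, and CD68, which also marks lysosomes, carried nearly all reads of the list (summed 18.5 FPKM and 19.1 FPKM), while PTPRC and CD3E had at most 2 reads in any library. The summed levels of the fibroblast and endothelial lists and the levels of single squamous markers moved with the condition, and their part in the results below was not tested.

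Of the 8 tested genes of the axis, 6 rose under hypoxia, 1 fell, and IGFBP4 did not pass the threshold (edgeR adjusted p below 0.05). Without normoxia replicate 3, in which CA9 was raised, 6 again rose and 1 fell. The response of the whole transcriptome was wide. Of all genes tested, 77.8% passed the same threshold, 39.2% as higher and 38.5% as lower. The count of 7 of 8 is therefore near the background, and 6 were higher and 1 lower, beside the nearly even split over all genes. The genes of the axis were chosen with earlier results of these data known. No excess is therefore read from that split or from the shares and medians below. With a log2 fold change beyond 1 also required, 5 of the 8 passed, against 30.4% of all genes. The fifth was IRS1 at -1.04. It lay inside 1 without hypoxia replicate 2 (-0.98) or hypoxia replicate 3 (-0.99), leaving 4 of the 8, all higher. IRS1 also lay inside 1 when each library had to hold 10 counts or more (-0.96), a filter under which IGFBP4 was not tested. Without normoxia replicate 1, IGFBP4 passed beyond 1 as well, at 1.84 (edgeR adjusted p = 0.0413). Libraries of the conditions did not overlap in CPM for 7 of the 8 genes, against 80.5% of all genes. The median log2 fold change of the 8 was 1.12, and that of all genes tested was 0.02. In bulk RNA, a change in the number of cells that carry a transcript and a change in RNA per cell cannot be told apart.

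**Figure D1:**
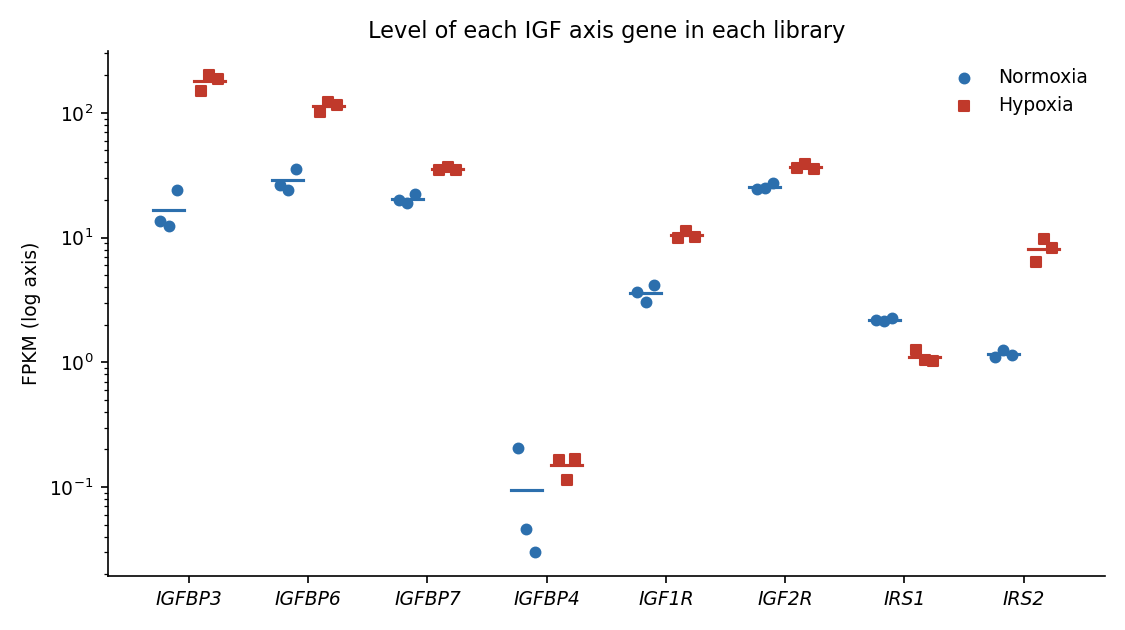
FPKM (log axis) of each gene of the IGF axis in each library, with normoxia as blue circles, hypoxia as red squares and a line at the mean of 3 libraries. IGFBP3 moved from a mean of 16.7 to 180 FPKM, IRS1 was the one gene whose hypoxia libraries all lay below its normoxia libraries, and IGFBP4 overlapped. IGFBP5, with 0 FPKM in 4 libraries, is not drawn.

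Among the binding proteins, IGFBP3 (Entrez 3486), the main carrier of IGFs in the circulation, had the largest increase. It was measured at 150, 203 and 188 FPKM under hypoxia and at 13.5, 12.5 and 24.0 FPKM under normoxia. The lowest hypoxia library lay 6.10 times above the highest normoxia library in CPM, and normoxia replicate 3 stood above the other normoxia libraries. The rise was 3.39 ± 0.17 on the log2 scale (SE, n = 3 per condition), or 10.5-fold (edgeR adjusted p = 1.07e-11). Of all genes tested, 2.65% had a larger log2 fold change. Without normoxia replicate 3, in which IGFBP3 was 1.85 times the mean CPM of the other normoxia libraries, the log2 fold change was 3.73.

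IGFBP6 (Entrez 3489) binds IGF2 with far higher affinity than IGF1. Its levels were 102, 121 and 115 FPKM under hypoxia and 26.5, 24.3 and 35.6 FPKM under normoxia. The conditions were well separated, and hypoxia replicate 1 and normoxia replicate 3 were again the libraries nearest to each other. IGFBP6 rose by 1.93 ± 0.10 on the log2 scale (SE, n = 3 per condition), or 3.80-fold (edgeR adjusted p = 1.48e-11).

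IGFBP7 (Entrez 3490), a secreted relative that binds IGFs weakly and is found in the extracellular matrix, changed less. It stood at 35.1, 37.0 and 34.5 FPKM under hypoxia and at 20.0, 18.9 and 22.3 FPKM under normoxia. The increase was 0.75 ± 0.067 on the log2 scale (SE, n = 3 per condition), or 1.69-fold (edgeR adjusted p = 1.44e-08), with no overlap between conditions. Its exons share 270 bases with POLR2B and 94 bases with IGFBP7-AS1, both on the opposite strand in GENCODE v29. POLR2B, a subunit of RNA polymerase II, fell by 0.64 on the log2 scale, and how the counting treated strand is not given in the sources used here.

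The remaining binding proteins were scarce. IGFBP4 (Entrez 3487) had 11, 9 and 12 reads under hypoxia and 17, 3 and 2 reads under normoxia. Normoxia replicate 1 exceeded every hypoxia library, so the conditions overlapped. The log2 fold change was 0.51 ± 0.62 (SE, n = 3 per condition; edgeR adjusted p = 0.457). Without normoxia replicate 1 it was 1.84 and passed the threshold (edgeR adjusted p = 0.0413), so 1 library decided the call. IGFBP5 (Entrez 3488) had 5, 0 and 4 reads in the hypoxia libraries and 0 in each normoxia library. Its mean under hypoxia was 3 reads, no more than a count of 0 allows, so no fold is given. Without the filter on low counts IGFBP5 passed the threshold (edgeR adjusted p = 0.0315). All its reads lay in hypoxia replicates 1 and 3, so nothing is read from that call.

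Of the binding proteins, IGFBP3, IGFBP6 and IGFBP7 together made up nearly all transcripts per length. Summed over IGFBP3 to IGFBP7, which leaves out IGFBP1 and IGFBP2, the level was 329 ± 37.3 FPKM under hypoxia and 65.9 ± 14.0 FPKM under normoxia (SD, n = 3 each), a ratio of 4.99. The share of IGFBP3 in this sum was 52.2%, 56.1% and 55.8% under hypoxia and 22.4%, 22.4% and 29.3% under normoxia. The share of IGFBP7 was 10.9% ± 1.13 under hypoxia and 31.5% ± 3.70 under normoxia (SD, n = 3 each), although its own level rose. IGFBP6 held 34.4% ± 1.05 and 43.7% ± 0.311 (SD, n = 3 each). IGFBP3 thus led the pool in every hypoxia library, whereas IGFBP6 led it in every normoxia library. IGFBP4 and IGFBP5 stayed below 0.4% of the sum in each library.

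Of IGF1R and IGF2R, IGF1R (Entrez 3480) was the more responsive. Its levels were 9.92, 11.4 and 10.1 FPKM under hypoxia and 3.65, 3.02 and 4.14 FPKM under normoxia. Every hypoxia library was at least 2.34 times above every normoxia library in CPM. The rise was 1.49 ± 0.082 on the log2 scale (SE, n = 3 per condition), or 2.81-fold (edgeR adjusted p = 2.77e-11).

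IGF2R (Entrez 3482), which clears IGF2 and sorts lysosomal enzymes, was high in both conditions and moved little. It was measured at 36.3, 38.6 and 35.3 FPKM under hypoxia and at 24.5, 24.8 and 27.4 FPKM under normoxia. The libraries of each condition lay close together, with a coefficient of variation in CPM of 3.21% under hypoxia and 6.28% under normoxia. IGF2R rose by 0.47 ± 0.055 on the log2 scale (SE, n = 3 per condition), or 1.39-fold (edgeR adjusted p = 4.45e-07), and 32.6% of all genes tested had a larger log2 fold change.

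INSR, the insulin receptor, was far scarcer than IGF1R. It had 60, 88 and 74 reads under hypoxia and 6, 7 and 19 reads under normoxia, or 0.210, 0.258 and 0.242 FPKM against 0.0170, 0.0249 and 0.0669 FPKM. The log2 fold change was 2.68 ± 0.40 (SE, n = 3 per condition). INSR passed the filter on low counts through the hypoxia libraries, so this value is a description and no test is read from it. Without normoxia replicate 3, the highest normoxia library, the log2 fold change was 3.43.

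The adaptors moved in opposite directions. IRS1 (Entrez 3667) had 1.26, 1.04 and 1.02 FPKM under hypoxia and 2.17, 2.13 and 2.27 FPKM under normoxia. All hypoxia libraries lay below all normoxia libraries. IRS1 fell by 1.04 on the log2 scale (SE 0.10, n = 3 per condition), or 2.05-fold (edgeR adjusted p = 4.93e-08), and 9.79% of all genes tested had a lower log2 fold change.

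IRS2 (Entrez 8660) had 6.37, 9.66 and 8.23 FPKM under hypoxia and 1.10, 1.25 and 1.15 FPKM under normoxia. Hypoxia replicate 1 was the lowest of its condition and still lay 4.87 times above the highest normoxia library in CPM. IRS2 rose by 2.75 ± 0.12 on the log2 scale (SE, n = 3 per condition), or 6.74-fold (edgeR adjusted p = 1.69e-12). Normoxia replicate 3, in which CA9 and IGFBP3 were raised, was not raised for IRS2, at 0.974 times the mean CPM of the other normoxia libraries.

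**Figure D2:**
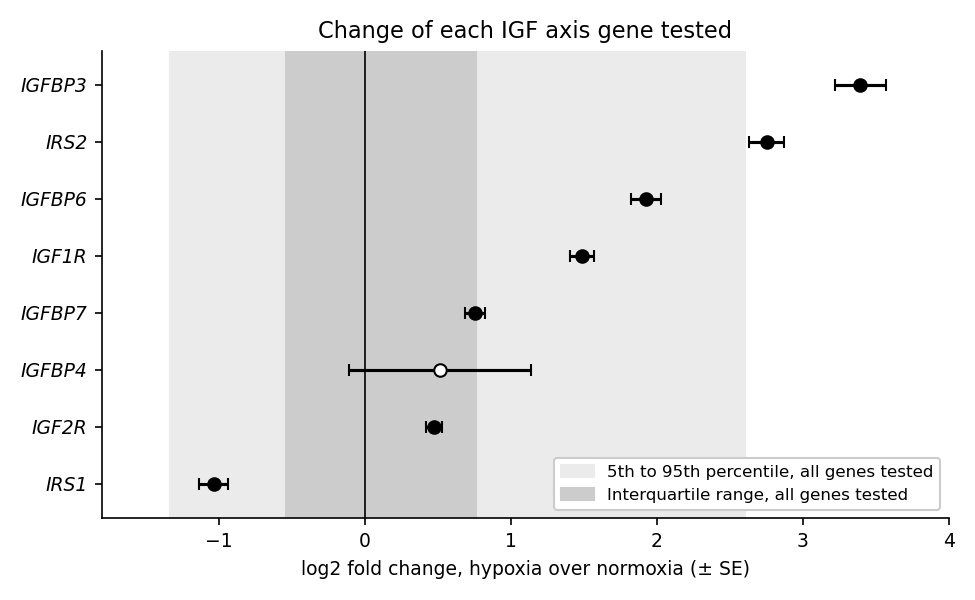
log2 fold change of hypoxia over normoxia (x axis) with its SE for the 8 genes tested, filled where the edgeR adjusted p was below 0.05. Dark grey spans the interquartile range of all genes tested (-0.54 to 0.76) and light grey their 5th to 95th percentile (-1.33 to 2.61); IGFBP3 at 3.39 and IRS2 at 2.75 lie beyond the upper end.

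The balance between transcripts was followed as the ratio of FPKM within each library. The ratio of IRS2 to IRS1 was 5.07, 9.30 and 8.05 under hypoxia and 0.504, 0.587 and 0.505 under normoxia. IRS1 was thus the more abundant adaptor in each normoxia library and IRS2 in each hypoxia library, a shift in the ratio of 13.6-fold. The ratio of IGFBP3 to IGFBP4, IGFBP5, IGFBP6 and IGFBP7 summed was 1.09, 1.28 and 1.26 under hypoxia and 0.288, 0.288 and 0.415 under normoxia, a shift of 3.71-fold. The ratio of IGF1R to INSR was 47.3, 44.1 and 41.5 under hypoxia and 215, 121 and 61.9 under normoxia, a shift of 2.65-fold towards INSR that rests on 6 to 19 INSR reads per normoxia library. None of the 3 ratios overlapped between conditions. In two-sided exact permutation tests each gave p = 0.1, the smallest that 3 against 3 libraries allow. After Benjamini-Hochberg adjustment over the 3 ratios each permutation p was again 0.1, so the design could not reach 0.05. The genes of these ratios were chosen with earlier results of these data known, and INSR passed the filter through the hypoxia libraries. Nothing is therefore read from these tests.

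Ordered by mean FPKM, the axis under hypoxia read IGFBP3 (180), IGFBP6 (113), IGF2R (36.7), IGFBP7 (35.5), IGF1R (10.4), IRS2 (8.09), IRS1 (1.11), IGFBP4 (0.149) and IGFBP5 (0.0155). Only the neighbours IGF2R and IGFBP7 overlapped between libraries in that order. Under normoxia the order was IGFBP6 (28.8), IGF2R (25.6), IGFBP7 (20.4), IGFBP3 (16.7), IGF1R (3.60), IRS1 (2.19), IRS2 (1.16) and IGFBP4 (0.0943), with IGFBP5 at 0. There, IGFBP6 overlapped IGF2R, and IGFBP7 overlapped IGFBP3. IGFBP3 moved from the fourth place to the first, and IRS1 and IRS2 changed places.

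The genes most alike in log2 CPM over the 6 libraries were sought among all genes tested, as a description. For IGFBP3, they were IGFBP6, the zinc finger gene VEZF1 and the nucleotide receptor gene P2RY2, each with Pearson's r of 1.00 over 6 libraries. VEZF1 itself rose by 0.50 on the log2 scale, so a like profile did not mean a like size of change. For IRS1, they were ILRUN, SPC24 and AREL1, with r of 0.999 each. With 3 libraries on either side of a strong contrast, r over 0.95 was common, in 3317 genes for IGFBP3 and 3477 for IRS1.

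The ligands were hardly detected. IGF1 had no row and was not analysed here. IGF2 had 1, 0 and 1 reads under hypoxia and 0 in each normoxia library, and IGFBP1, a binding protein made chiefly by liver, had 0, 0 and 1 reads under hypoxia and 1, 1 and 0 under normoxia. IGFALS, which joins IGFBP3 and an IGF in the circulating complex, had at most 1 read in any library. None of the 5 genes of this list was tested.

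In the list of other receptors, 3 of 4 tested genes rose and 1 fell, with a median log2 fold change of 1.91 beside 0.02 over all genes. Of the 3 that rose, INSR passed the filter on low counts through the hypoxia libraries, so nothing is read from that count or median. LRP1, a large endocytic receptor to which IGFBP3 can bind, rose by 3.13 ± 0.18 on the log2 scale, from 2.63 to 23.7 FPKM. TMEM219, described as a cell death receptor for IGFBP3, rose by 1.13 ± 0.070. M6PR, the smaller receptor for mannose 6-phosphate beside IGF2R, fell by 0.28 (SE 0.055). The SE of each came from edgeR with n = 3 per condition, as for the genes that follow. The counts of each list are to be read beside the shares of all genes tested, of which 39.2% rose, 38.5% fell and 77.8% passed in either direction.

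Of 8 tested adaptors besides IRS1 and IRS2, 4 rose, 1 fell and 3 did not pass, so that 5 of 8 passed beside 77.8% of all genes, and the median was 0.30. GRB7 rose by 2.23 ± 0.12 on the log2 scale, GAB1, a docking protein of several receptor kinases, by 1.34 ± 0.12, and GRB10, which restrains insulin and IGF receptors, by 0.52 ± 0.062. GRB2, which links receptors to RAS, fell by 0.49 (SE 0.055). SHC1 had a log2 fold change of -0.09 and did not pass.

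All 13 tested genes of the list of IGFBP proteases and their inhibitors passed, 8 higher and 5 lower, beside 77.8% of all genes. The shares over all genes were 39.2% higher and 38.5% lower, and the median log2 fold change of the list was 0.81. PAPPA2 and MMP9 were among the 8 and passed the filter on low counts through the hypoxia libraries. PAPPA2 had 5, 2 and 6 reads under normoxia and MMP9 9, 5 and 11, so nothing is read from that count or median. MMP2 rose by 2.71 ± 0.10 on the log2 scale, CTSD, the lysosomal protease cathepsin D, by 1.58 ± 0.076, and STC1, one of the stanniocalcins that block the pappalysins, by 2.62 ± 0.12. Among those that fell, MMP1 fell by 3.13 (SE 0.33), PAPPA, the pappalysin that cuts IGFBP4, by 1.66 (SE 0.20), and PLAU, the urokinase, by 1.32 (SE 0.069). Without hypoxia replicate 1, in which MMP1 was highest of its condition with 47 reads, the log2 fold change of MMP1 was -3.90. PAPPA was scarce, at 0.151 FPKM under hypoxia and 0.465 FPKM under normoxia.

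The IGF2 mRNA-binding proteins, which stabilise or localise transcripts and do not bind the IGF protein, all passed, with IGF2BP2 higher by 0.63 ± 0.049 and IGF2BP1 and IGF2BP3 lower by 0.51 (SE 0.064) and 0.31 (SE 0.051) on the log2 scale. Of 6 tested genes of the CCN family and other IGFBP-related genes, 3 rose and 2 fell, beside 39.2% and 38.5% of all genes. Of the 3 that rose, CCN4 and CCN5 passed the filter on low counts through the hypoxia libraries alone, so nothing is read from that count. CCN2 and CCN1, matricellular proteins known as targets of YAP signalling, fell by 2.26 (SE 0.11) and 2.04 (SE 0.095). CCN5 had 41, 55 and 53 reads under hypoxia and 0 in each normoxia library, at least 15.5-fold higher against a floor of 3 reads per library. KAZALD1 rose by 0.39 ± 0.16 (edgeR adjusted p = 0.0402), a call that was lost when hypoxia replicate 1 (0.18), hypoxia replicate 3 (0.36) or normoxia replicate 1 (0.32) was left out.

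Downstream of the receptors, 8 of 23 genes of the PI3-kinase, AKT, mTOR and FOXO list rose, 11 fell and 4 did not pass, with a median of -0.14, beside 39.2% of all genes higher and 38.5% lower. Here 2 of 23 passed with a log2 fold change beyond 1, beside 30.4% of all genes. FOXO4 rose by 1.68 ± 0.19, FOXO3, a transcription factor held back by AKT, by 1.13 ± 0.060, and RICTOR, the scaffold of mTOR complex 2, by 0.95 ± 0.077. GSK3A fell by 0.75 (SE 0.062), RPS6KB1, the S6 kinase, by 0.61 (SE 0.065), and MTOR by 0.59 (SE 0.053).

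Of 12 tested brakes of the pathway, 5 rose, 5 fell and 2 did not pass, with a median of 0.09, near the 39.2% higher and 38.5% lower of all genes. The increases were led by PIK3IP1, an inhibitor of PI3-kinase, at 4.29 ± 0.16 on the log2 scale (1.28 to 25.4 FPKM), and by DDIT4, also called REDD1 and known to restrain mTOR complex 1 under hypoxia, at 3.74 ± 0.13 (84.7 to 1168 FPKM). SOCS3 rose by 0.87 ± 0.081. PHLPP2, a phosphatase of AKT, fell by 1.11 (SE 0.081), SOCS2 by 1.06 (SE 0.10) and NEDD4 by 0.95 (SE 0.054). Over all 8 lists, 32 of 69 tested genes rose and 27 fell, and the median log2 fold change was 0.02. The 32 include INSR, PAPPA2, MMP9, CCN4 and CCN5, which passed the filter on low counts through the hypoxia libraries, so nothing is read from that total. With at least 10 counts in every library, which none of these genes had, 28 rose and 24 fell.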

How the data were processed

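RNA-seq was performed on 6 SCC25 libraries, 3 per condition. The groups and replicate numbers came from the sample titles, and a figure legend of the study names another line, SCC9. The authors deposited counts, whole numbers of reads per gene with no normalization, and FPKM for the same genes. For 21775 of 21776 genes the deposited FPKM equalled the counts divided by a whole-number gene length and the library's total, within 0.1%. The aligner, the counting tool and its strand setting are not given in the sources used here. The submitters' processing notes name the mouse builds GRCm38 and mm10 although the gene symbols are human, so no gene coordinates are taken from the files, and promoter windows carry RefSeq's own build.

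Counts were fitted with edgeR 4.0.16 in R 4.3.3 (TMM, filterByExpr, condition only, quasi-likelihood F test, Benjamini-Hochberg over 14255 genes, adjusted p below 0.05). The fit was also run on simulated counts in which only a small share of genes changed. That run cannot check a response as wide as the one here. The SE is the size of the log2 fold change divided by the square root of F. Alternatives used DESeq2 1.42.0, limma 3.58.1 on log2(FPKM + 1), other filters, a replicate block and leaving out each library. Ratios were tested with scipy 1.17.1. Exons were compared with GENCODE v29. Depth was 29637189 to 37278703 counts per library, and 3 counts, the floor used for a count of 0, corresponded to 0.0806 to 0.105 CPM per library, which covers counting error only. No replicate pair of a condition agreed within sampling noise, with a mean chi-square per gene of 4.90 to 10.8.

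The members and lists were chosen with earlier results of these data known. The genes named were all members, IGF1, IGF2, IGFBP1, INSR and CA9, up to 3 increases and 3 decreases per pathway list (adjusted p below 0.05, mean log2 CPM of at least 1), and the 3 genes most alike to the members with the largest increase and decrease. POLR2B, SHC1, IGFALS, PAPPA2, MMP9, CCN4, CCN5 and the marker genes were named besides, after their values were seen.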

Additional observations from a re-analysis of the deposited data

How the results depend on the processing

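Of 109 values of the 8 tested genes under other settings, 108 kept their direction and their side of the threshold; the other was IGFBP4 without normoxia replicate 1. With a log2 fold change beyond 1 also required, 4338 genes (30.4%) passed in place of 11090 (77.8%). Then 17 pathway genes rose and 7 fell in place of 32 and 27. Nothing is read from the pathway totals here, since INSR, PAPPA2, MMP9, CCN4 and CCN5 passed the filter on low counts through the hypoxia libraries. The fit with at least 10 counts in every library leaves these genes out. With no filter on low counts, 11920 genes passed, 7 members rose, and 31 pathway genes rose and 30 fell. The member added was IGFBP5, with reads in hypoxia libraries only, and nothing is read from its call. With at least 10 counts in every library, 9967 genes passed, and 28 pathway genes rose and 24 fell. Leaving out 1 library in turn, 10669 to 11390 genes passed, 6 to 7 members rose and 1 fell, 30 to 32 pathway genes rose and 25 to 28 fell. The log2 shift ranged from 3.59 to 4.03 for IRS2 to IRS1, from -1.87 to -0.97 for IGF1R to INSR and from 1.80 to 2.07 for IGFBP3 to the other binding proteins. With 1 library left out, the log2 fold change of IGFBP3 ranged from 3.23 to 3.73 and that of IRS1 from -1.15 to -0.98. IRS1 stood at -0.96 with at least 10 counts in every library. On the FPKM scale with a pseudocount of 1, IRS1 had -0.60 and IRS2 2.05, since the pseudocount shrinks genes of low FPKM. With the replicate block, 10875 genes passed, 6 members rose and 1 fell, and 31 and 25 pathway genes rose and fell. Same-numbered libraries of the conditions did not deviate together (correlations of 0.018, -0.069 and 0.0012), so the numbers were not taken as a pairing, and not every library correlated best with its own number. IGFBP4, IGFBP5 and INSR under normoxia are limited by depth.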

Other observations

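Other genes with IGF in their names were looked at after their values were seen. IGFL1, a secreted IGF-like ligand of skin, had 2, 1 and 1 reads in hypoxia replicates 1 to 3 and 45, 35 and 27 reads in normoxia replicates 1 to 3, at or under 3 reads in each hypoxia library. IGFLR1, its receptor, had 67, 80 and 45 reads under hypoxia and 80, 53 and 63 reads under normoxia, with overlapping conditions (log2 fold change -0.10 ± 0.26, SE, n = 3 per condition; edgeR adjusted p = 0.735). IGFL2-AS1, an antisense RNA, had 593, 631 and 512 reads under hypoxia and 49, 31 and 38 under normoxia, with a log2 fold change of 3.81 ± 0.15 (edgeR adjusted p = 5.62e-13).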
